A study of Mus musculus with 2 samples.

Results

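Mineral forms in matrix when phosphate is freed near collagen and the inhibitors of crystal growth are removed. The genes described here act in that balance: the enzymes and transporters of phosphate and pyrophosphate (Alpl, Phospho1, Enpp1, Ank, Slc20a1), the secreted inhibitors (Mgp, Ahsg), and bone matrix proteins with a peptidase of bone cells (Bglap, Ibsp, Phex). They were chosen by gene symbol, as transcript clusters listed under that symbol alone, and where a gene had several clusters the brightest was to be kept. Of the 10 genes, 7 had such a cluster, each with 1 cluster, out of 30142 named genes on the array. Ank and Phospho1 had a cluster that also carries other symbols, and Enpp1, which makes pyrophosphate from ATP, was not analysed here.

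The cells were adipose-derived stromal cells, fibroblast-like progenitors grown out of inguinal fat. The donor mice were C57BL/6J and 6 to 10 weeks old. Cells came from Wisp1 KO mice (1 array) or WT mice (1 array), and both cultures grew in DMEM with 15% FBS. Per the labels, the knockout is global: a Wisp1 allele floxed around exons 1 to 5 was bred to a Cre-neo mouse, and the number of animals behind each array is not given in the sources used here. Wisp1 encodes a secreted matricellular protein, and the study concerned heterotopic ossification, in which bone forms in soft tissue. With 1 array per genotype there was no replicate spread, no test and no p-value, so each difference compares these 2 arrays and has no error of its own.

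All values are log2 expression values from RMA, and every difference is the knockout value less the wild-type value. Values of different genes come from different probes and are not compared as amounts. The targeted gene Wisp1 read 5.40 in the knockout array and 7.79 in the wild-type array, a difference of -2.39, which is in the direction of its label. The 2 arrays correlated at Pearson r = 0.996 across 65956 transcript clusters, which are not independent replicates. Of 10 stromal progenitor markers measured, 9 lay at or above 4.65, the median level of named genes. Of 7 osteoblast and osteocyte markers 3 did, with means over both arrays of 5.41 for Bglap, 4.85 for Ifitm5 and 4.77 for Sost. Dmp1, the osteocyte matrix gene, lay below that median, at 2.81 in the knockout array and 2.92 in the wild-type array. Genes below that median are called dim here, since the files hold no detection call. The Wisp1 value of 5.40 in the knockout array also lay above that median. What this remaining signal comes from was not tested.

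Like most named genes, the mineralization genes differed little between the arrays, with Mgp as the largest difference. None of the 7 genes differed by 2-fold, a size reached in either direction by 0.0896% of all named genes and by 0.166% of those that were not dim. At a smaller limit of 0.32 on the log2 scale, a ratio of 5 to 4 in signal, 1 of 7 was lower in the knockout array and 0 were higher, where 3.06% of all named genes were lower and 2.72% were higher. Leaving out dim genes, these shares were 2.64% lower and 3.89% higher. By sign alone 3 of the 7 were higher and 4 lower, with a median difference of -0.07 against a median of 0 over all named genes. The central 95% of differences ran from -0.34 to 0.33 over all named genes, and only Mgp among the 7 lay outside it.

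**Figure D1:**
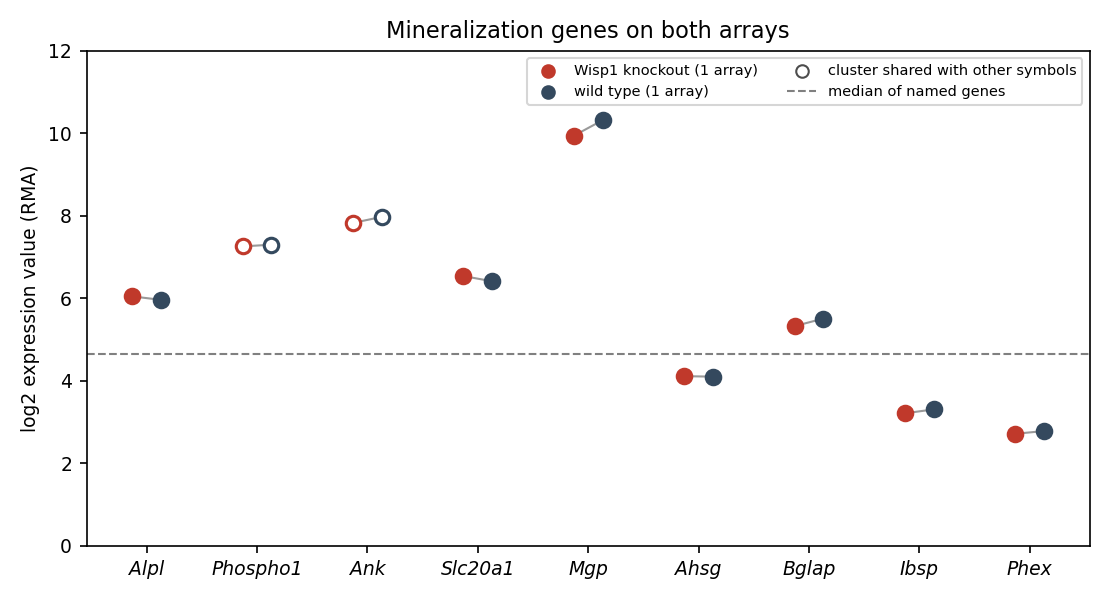
Log2 expression value (vertical axis) of 9 mineralization genes (horizontal axis) on the Wisp1 knockout array (red, left of each pair) and the wild-type array (dark blue, right). Open circles mark Phospho1 and Ank, whose clusters carry other symbols, and the dashed line is the median of named genes, 4.65. The 2 arrays lie close together for each gene, with the widest gap at Mgp (9.94 and 10.32).

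Alpl, Bglap and Ibsp are classic readouts of osteoblasts, and osteoblast factors of the RUNX and Sp families are known to act on their promoters. Their promoters are shown because the bone readouts are set beside the osteoblast regulators further on. Promoter windows in RefSeq (GRCm38.p6) run from 250 bases before to 50 bases after a gene's start, and 9 of the 10 genes matched. For Alpl the window is that of the most upstream of 2 listed starts. Capitals mark the letters TATAAA of a TATA box, the RUNX core written ACCACA, and the GC box written GGGCGG, each searched on both strands. Sequences read 5′ to 3′ on the strand of the gene.
Alpl, chr4:137796335-137796634, minus strand: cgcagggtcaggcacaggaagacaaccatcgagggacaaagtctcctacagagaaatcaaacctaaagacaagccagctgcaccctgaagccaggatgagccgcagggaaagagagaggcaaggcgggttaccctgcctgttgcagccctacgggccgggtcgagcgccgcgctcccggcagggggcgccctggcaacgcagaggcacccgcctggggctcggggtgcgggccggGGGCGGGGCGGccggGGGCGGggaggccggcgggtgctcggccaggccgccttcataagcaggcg
Bglap, chr3:88384417-88384716, minus strand: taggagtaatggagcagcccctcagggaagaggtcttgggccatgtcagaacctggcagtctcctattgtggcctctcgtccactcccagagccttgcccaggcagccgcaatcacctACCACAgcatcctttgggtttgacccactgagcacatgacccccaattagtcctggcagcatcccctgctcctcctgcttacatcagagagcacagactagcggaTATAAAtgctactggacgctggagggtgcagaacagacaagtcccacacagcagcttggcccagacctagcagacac
Ibsp, chr5:104299037-104299336, plus strand: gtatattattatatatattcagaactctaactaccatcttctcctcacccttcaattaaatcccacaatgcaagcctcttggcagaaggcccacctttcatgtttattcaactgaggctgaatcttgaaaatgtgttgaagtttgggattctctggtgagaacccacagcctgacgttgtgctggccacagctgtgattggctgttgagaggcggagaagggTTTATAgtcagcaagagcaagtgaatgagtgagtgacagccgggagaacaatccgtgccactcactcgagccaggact
The Bglap window holds TATAAA with its first base 27 bases before the start and ACCACA 132 bases before it. The Ibsp window holds TATAAA on the opposite strand, 28 bases before the start, and neither other motif. The Alpl window holds GGGCGG 3 times, with the first 2 copies overlapping by their end bases, and neither other motif. Of 32851 promoter windows, 13.6% hold TATAAA, 16.8% ACCACA and 35.7% GGGCGG at any position. Each match is a description of letters, and whether it acts as a site was not tested.

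The genes that supply phosphate were nearly level on the arrays. Alpl, tissue-nonspecific alkaline phosphatase, which splits the inhibitor pyrophosphate into phosphate, read 6.04 in the knockout array and 5.96 in the wild-type array. The difference of 0.09 corresponds to 1.06-fold, and 51.9% of named genes differed at least as much. Slc20a1, a sodium-dependent phosphate importer, read 6.54 in the knockout array and 6.41 in the wild-type array. It was the highest of the 7 differences at 0.13, yet 36.4% of named genes lay at least as far from 0. In bulk RNA, fewer cells of a type and less RNA per cell cannot be told apart for these or any later genes.

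Phospho1 and Ank could be read only together with other genes. Phospho1 encodes a phosphatase that frees phosphate from phosphocholine inside matrix vesicles. The cluster listed under Phospho1 and Zfp652, a zinc finger gene, read 7.26 in the knockout array and 7.30 in the wild-type array, a difference of -0.04. Ank encodes a membrane protein through which cells export ATP and pyrophosphate, which restrains mineral. The cluster listed under Ank and the microRNA gene Mir7117 read 7.83 in the knockout array and 7.97 in the wild-type array, a difference of -0.15. How much of either signal belongs to each gene was not tested.

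The inhibitor Mgp gave the one log2 difference past 0.32. Mgp, matrix Gla protein, is a small secreted protein, carboxylated with the help of vitamin K, that keeps cartilage and arteries from calcifying. It read 9.94 in the knockout array and 10.32 in the wild-type array, a difference of -0.37 or 1.30-fold. Of all named genes 564 had a lower difference, and 3.59% lay at least as far from 0. Smooth muscle cells are known to express Mgp, and 6 of 7 smooth muscle and pericyte markers were lower in the knockout array, with a median of -0.31. Their summed linear signal was 8522 in the knockout array and 9666 in the wild-type array, a ratio of 0.882. That sum mostly follows Acta2, at 12.70 in the knockout array and 12.83 in the wild-type array. Stromal progenitor markers had 8 of 10 higher, with Col1a1 at 0.50, Col3a1 at 0.43 and Dpt at 0.35 past the limit of 0.32. Their summed signal was 10548 in the knockout array and 8541 in the wild-type array, a ratio of 1.23, and mostly follows Col1a1 and Col3a1. Among all named genes that were not dim, 56.9% were higher and 39.9% lower. All 6 hypertrophic chondrocyte markers were higher, with a median of 0.19, and 3 of them were not dim. Endothelial markers had 5 of 7 higher and 2 lower, with a median of 0.07, and only 1 of the 7 was not dim. What part any of these marker shifts had in the Mgp difference was not tested. Ahsg, fetuin-A, a serum inhibitor made mainly by liver, was dim and differed by 0.01, at 4.11 in the knockout array and 4.10 in the wild-type array. Of 4 hepatocyte markers measured, 3 were dim, among them Alb at 2.91 in the knockout array and 2.97 in the wild-type array, while Apoa2 read 4.93 on both arrays.

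The bone matrix genes were dim or near the median level and slightly lower. Bglap, osteocalcin, a Gla protein secreted by osteoblasts, read 5.32 in the knockout array and 5.51 in the wild-type array, a difference of -0.18. Mice carry near-identical copies of this gene, so the cluster may hold signal of more than 1 copy, and the cluster of the copy Bglap2 differed by 0.05, at 5.22 in the knockout array and 5.17 in the wild-type array. Ibsp, bone sialoprotein, an acidic protein that can start crystal growth, was dim, at 3.21 in the knockout array and 3.30 in the wild-type array (-0.09). Phex, a membrane peptidase of osteoblasts and osteocytes that is known for phosphate wasting when lost, was dim too, at 2.71 in the knockout array and 2.78 in the wild-type array (-0.07). Of the dim named genes 37.0% were higher and 54.8% lower, and their median was -0.03, so small negative values were the more frequent sign at this level. Of the named genes that were not dim, such as Bglap, Mgp, Alpl and Slc20a1, 56.9% were higher and 39.9% lower, and their median was 0.03.

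**Figure D2:**
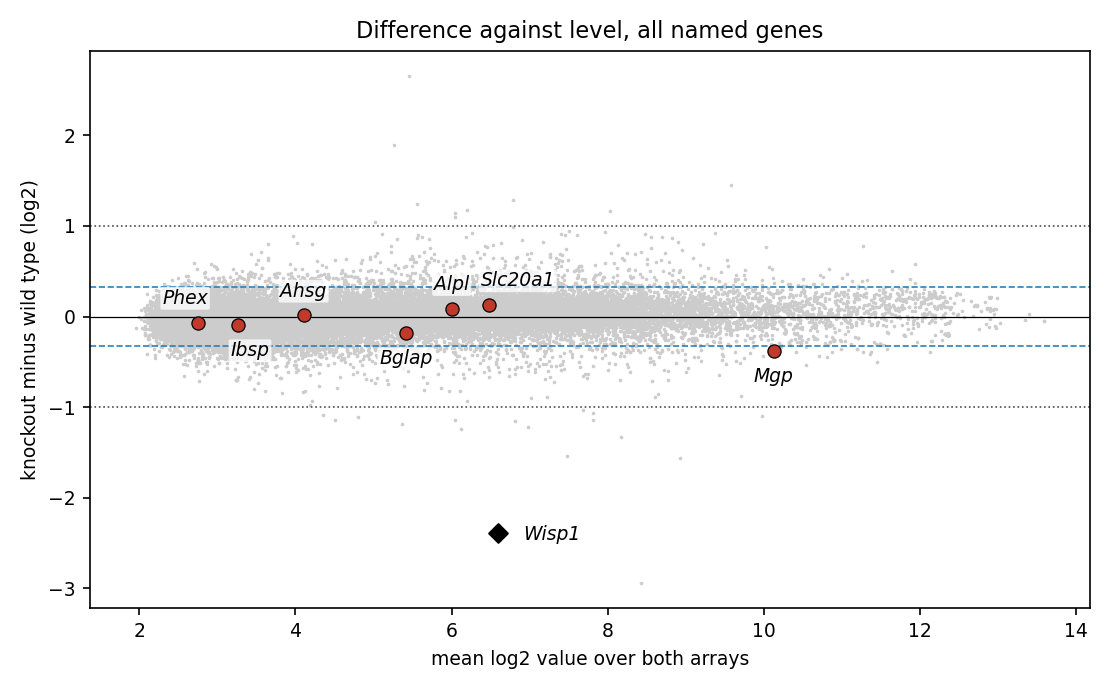
Log2 difference, knockout minus wild type (vertical axis), against the mean log2 value over both arrays (horizontal axis) for 30142 named genes (grey), the 7 mineralization genes (red) and Wisp1 (black diamond). Dashed lines mark a log2 difference of 0.32 in either direction and dotted lines 2-fold. Mgp lies just past the lower dashed line at -0.37, and the other 6 genes lie between the dashed lines.

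Among other genes of the same chemistry, Enpp3 and Smpd3 differed more than any of the 7. The list of phosphate and pyrophosphate handling, 15 genes measured, had 7 higher, 7 lower and a median of 0, with 1 gene past 0.32 in each direction. For this and the later lists, the shares past 0.32 over all named genes were 2.72% higher and 3.06% lower. A longer list has more room for a large single difference, so the extremes of lists of unlike length are not compared. Enpp3, an ectonucleotidase related to Enpp1, read 6.07 in the knockout array and 5.19 in the wild-type array, a difference of 0.88 or 1.84-fold. Smpd3, a sphingomyelinase whose loss in mice leaves bone poorly mineralized, read 5.82 in the knockout array and 6.30 in the wild-type array, a difference of -0.48. Slc20a2, the paralog of Slc20a1, read 7.71 in the knockout array and 7.92 in the wild-type array, a difference of -0.21 where that of Slc20a1 was 0.13.

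Mgp and Bglap proteins need carboxylation, which depends on the vitamin K cycle. The list of vitamin K cycle and Gla protein genes held differences in both directions. Ggcx, the carboxylase itself, read 8.37 in the knockout array and 8.02 in the wild-type array, a difference of 0.35, which was 0.317 and short of the limit of 0.322 under both quantile normalization and loess centring. The reductase gene Vkorc1, which recycles vitamin K, differed by 0.18 and its paralog Vkorc1l1 by 0.13, both short of the limit. Nqo1, a quinone reductase, read 6.23 in the knockout array and 7.38 in the wild-type array, a difference of -1.15 and the only one past 2-fold in the 5 pathway lists. Prrg4, a membrane protein with a Gla domain, differed by -0.44, while Gas6, a secreted Gla ligand of receptor kinases, differed by -0.08. Over the 17 measured genes of this list 7 were higher and 7 lower, the median was 0, and 1 was past 0.32 higher and 2 lower. The remaining genes were dim and read the same on both arrays. Over the 10 genes that were not dim the median was 0.04.

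None of the 12 measured genes of acidic and mineral-binding matrix proteins was past 0.32, 8 were higher and 4 lower, and the median was 0.05. Ecm1 was not among the 12, because its cluster carries other symbols, and no cluster was listed under Spp1. The Ecm1 cluster read 9.51 in the knockout array and 9.95 in the wild-type array, a difference of -0.44 and past 0.32. How much of that signal belongs to Ecm1 was not tested. Only 3 of the 12 were not dim. Among those, Matn1, a cartilage matrix gene, differed by -0.10, Sparc, which binds collagen and calcium, by 0.04, and the proteoglycan gene Bgn by 0.09. Dmp1 and Mepe, relatives of Ibsp, were dim and differed by -0.11 and 0.27.

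Hormonal and osteoblast regulators each had 1 gene past 0.32 that was not dim. Fam20a, a partner of the secretory kinase that phosphorylates matrix proteins, read 8.26 in the knockout array and 7.68 in the wild-type array, a difference of 0.59. Fam20c, that kinase, differed by -0.30. The 13 measured genes of phosphate hormones and vitamin D had 7 higher, 5 lower, a median of 0.05 and 1 past 0.32 higher. Tnfrsf11b, osteoprotegerin, the decoy receptor that restrains osteoclasts, read 6.30 in the knockout array and 6.92 in the wild-type array, a difference of -0.61. Of 15 measured osteoblast regulators 7 were higher and 8 lower, the median was -0.01, which turned to 0.0059 under loess centring, and 2 were past 0.32 lower, the other being the dim bone morphogenetic protein gene Bmp2 (-0.36). The transcription factor genes Sp7, which was dim, and Dlx5, both upstream of Alpl, Bglap and Ibsp in osteoblasts, differed by 0.10 and 0.05. Over the same arrays Alpl differed by 0.09, Bglap by -0.18 and Ibsp by -0.09.

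**Figure D3:**
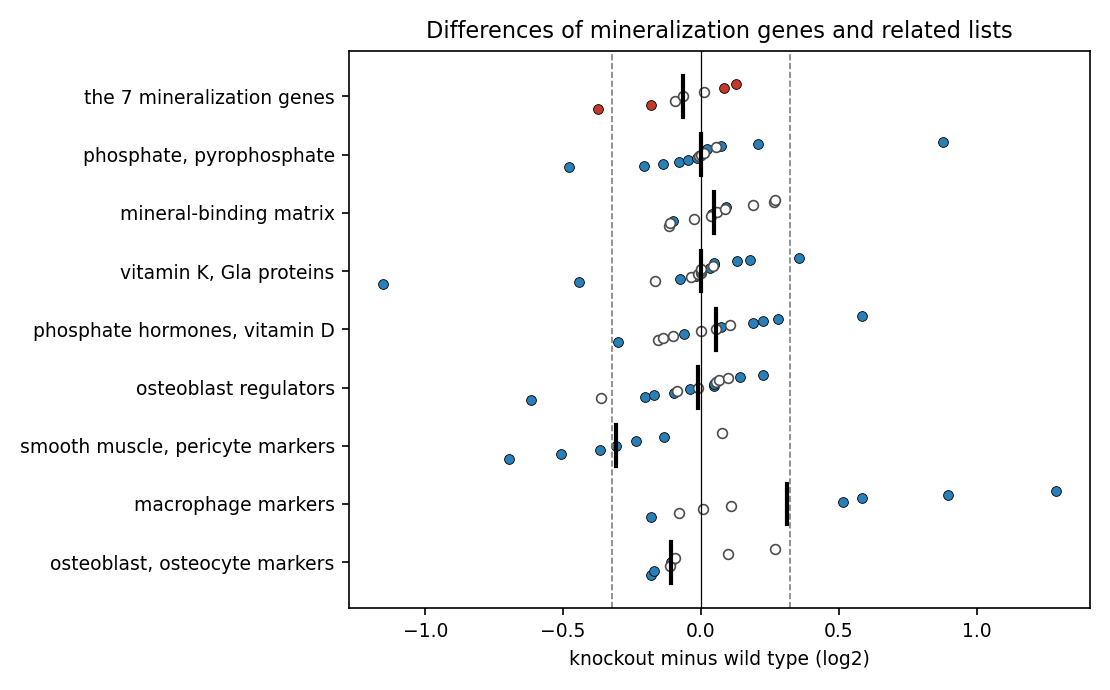
Log2 difference, knockout minus wild type (horizontal axis), for each measured gene of 9 lists (rows), with the 7 mineralization genes on top. Filled points are genes at the median level or brighter, open points are dim genes, black bars are list medians and dashed lines mark 0.32 in either direction. The 7 genes span -0.37 to 0.13, while single genes of other lists reach -1.15 (Nqo1) and 1.29 (the macrophage marker Lyz2).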

How the data were processed

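Total RNA of 1 Wisp1 knockout and 1 wild-type culture was hybridised to 1 array each after biotin labelling with the Affymetrix GeneChip WT PLUS kit, per the labels' protocols. The authors deposited log2 values per transcript cluster, made with RMA and Partek per the submitters' processing notes. That scale was inferred from the range of the values. Versions, the array design's genome build and the arrays normalized together are not given in the sources used here. RMA makes the arrays' distributions alike, which hides a shift common to most genes, and it compresses the differences of dim genes.

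Of 65956 clusters 30604 carried 1 symbol in the platform annotation, which can be old, 2146 several and 33206 none. Symbols were updated through Entrez IDs with RefSeq (GRCm38.p6), which changed 827. For genes with over 1 cluster (355) the highest mean was kept. Differences were knockout minus wild type, with no further normalization and calls at 2-fold and at 0.32 on the log2 scale. The number of arrays limits the precision.

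The genes and the lists (5 of pathways, 10 of cell types) were chosen with earlier results of these data known. Named genes were all mineralization genes, Wisp1, and in each pathway list genes that were not dim and were past 0.32, at most 4 per direction, or else the largest difference. Slc20a2, Vkorc1, Vkorc1l1, Gas6, Sparc, Bgn, Dmp1, Mepe, Ecm1, Fam20c, Bmp2, Sp7, Dlx5, Bglap2 and the cell type markers named singly were named outside that rule, with their values known. Alternatives were filters on level, median centring, quantile normalization, loess centring (span 0.3), other choices of cluster, the mean in place of the median, and 1.5-fold and 1.1-fold thresholds. A value counted as moved when it changed by 0.1 or more, and a count when it changed by over 1.5 times. The functions were tested on simulated data. The tools were statsmodels 0.14.6, pandas 2.3.3 and numpy 2.4.6 in Python 3.11.15, with figures by matplotlib 3.10.9.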

Additional observations from a re-analysis of the deposited data

How the results depend on the processing

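No paired analysis was possible because each genotype has 1 array. Median centring and the other choices of cluster could not move the 7 mineralization genes, since the median difference was 0 and each has 1 cluster. Under quantile normalization and loess centring, all 52 recomputed values stayed within 0.1 on the log2 scale or, for counts, within 1.5 times. The 7 genes, Wisp1 and the 8 pathway genes past 0.32 kept their signs under both, with Mgp between -0.40 and -0.37, Bglap between -0.21 and -0.18 and Slc20a1 between 0.09 and 0.13. The median of the mineralization genes ranged from -0.07 to -0.03, and Wisp1 from -2.43 to -2.39. Ggcx ranged from 0.317 to 0.354, on both sides of the limit of 0.322. The fold threshold decided the counts: lower genes numbered 2 at 1.1-fold and 0 at 1.5-fold, against 1 at 0.32 on the log2 scale and 0 at 2-fold. Over genes at or above the median level alone, the median of the phosphate hormone and vitamin D list was 0.19, where only the filter on dim genes differed.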

Other observations

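Markers of the cells that turn cartilage into bone and remodel it were also measured. All 6 genes of the hypertrophic chondrocyte list were higher in the knockout array, with a median of 0.19, but 3 of them were dim, and 56.9% of all named genes that were not dim were higher. The list also holds general cartilage genes, and Sox9, the transcription factor of cartilage, was the only one past 0.32 that was not dim, at 8.93 in the knockout array and 8.56 in the wild-type array (0.37). Mmp13, the collagenase of hypertrophic cartilage, was dim and read 4.35 in the knockout array and 3.82 in the wild-type array, a difference of 0.52, and Col10a1, the collagen gene that defines these cells, differed by 0.02. Of 6 osteoclast markers 5 were higher, none was past 0.32 on the log2 scale, and 4 were dim. Among those that were not, Acp5, the acid phosphatase of osteoclasts and macrophages, read 5.76 in the knockout array and 5.54 in the wild-type array (0.22), and Ctsk, a collagen-degrading cathepsin, differed by 0.03. Macrophage markers, which share some of these genes' expression, had 6 of 8 higher with a median of 0.31. Lyz2, Fcer1g, Cd68 and Tyrobp were past 0.32, at 1.29, 0.90, 0.58 and 0.51. Adgre1, Csf1r and Mrc1 were dim and differed by -0.08, 0.01 and 0.11, and Cd14 differed by -0.18. The markers' summed linear signal, in which Lyz2 weighs most, was 425 in the knockout array and 258 in the wild-type array. The part of macrophages in the osteoclast values was not tested. These genes were named after their values were seen.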
